A study of Rattus norvegicus with 6 samples.

Results

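The epidermal growth factor (EGF) receptor family was examined in NRK-52E cells, an established epithelial line from normal rat kidney, through 9 genes chosen by name from the 18930 genes of the count table. They were the receptors Egfr, Erbb2 and Erbb3, the ligands Areg, Ereg, Hbegf, Tgfa and Btc, and the receptor inhibitor Errfi1. Messenger RNA was sequenced from 3 vehicle-treated samples (Control) and from 3 samples exposed to streptozotocin (STZ) at 10 mM for 24 h. All samples were of wild-type genotype, and STZ, a glucose-linked agent that alkylates DNA, was the only labelled difference. The study dissolved STZ in dimethyl sulfoxide for its cell experiments, and whether the replicates were separate cultures is not given in the sources used here, so p-values measure the spread between these samples only. The question was which transcripts of this receptor system differed between STZ-treated and vehicle-treated cells.

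Receptors of this family sit in the cell membrane and pair when a ligand binds, which switches on their tyrosine kinases and, through Ras and ERK, growth-related transcription. The ligands are made as membrane-anchored precursors that metalloproteinases such as Adam17 cut free. In the kidney tubule this receptor system is known for its part in epithelial repair after injury.

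Libraries held 10430924 to 15191349 counted reads. The 3 STZ libraries held 13921413, 11658253 and 15191349 reads and the Control libraries 10430924, 10902792 and 12737131, and the ranges overlapped. Within a group, samples differed beyond counting noise (chi-square per degree of freedom of at least 1.85), which does not show whether they were separate cultures. Each was counted as 1 replicate. Of the markers checked, Krt8 and the junction gene Tjp1 had at least 6373 reads in every sample, but Cdh1, which encodes E-cadherin, had 16 to 35 and no sample had more than 7 reads of the proximal tubule genes Slc5a2, Lrp2, Slc34a1 or Slc2a2. Vim, a mesenchymal marker that cultured epithelia also express, had at least 20083. The summed epithelial markers lay between 21253 and 22330 normalized counts in Control and between 28455 and 28530 in STZ, with 5 of 8 markers detected (Epcam, Krt19 and Cldn1 were not analysed here), 2 higher and 1 lower. Krt8 and Tjp1 were the 2 higher and made up nearly all of this sum. The lower one was Cdh1, with a log2 fold change of -0.69 (edgeR adjusted p = 0.030). Krt7, with 13 to 19 reads, was not called, and Krt18 had at most 3 reads in any sample. The 7 mesenchymal markers summed to 25594 to 28192 in Control and 24347 to 24737 in STZ, with 1 higher and 5 lower. Vim made up most of this sum. The higher one was Des, with a log2 fold change of 2.65 (edgeR adjusted p = 7.9e-20). Of the 5 lower, Col3a1 had the largest fall, at -1.35 (edgeR adjusted p = 2.5e-18), and Vim had -0.12. The 8 proximal tubule markers, 7 of them detected, summed to 719 to 752 and 932 to 1085, with Hnf4a not analysed here. Of these, Ggt1 (451 to 1220 reads per sample) was higher, with a log2 fold change of 0.73 (edgeR adjusted p = 1.9e-13), Aqp1 (66 to 167 reads) was lower, at -1.25 (adjusted p = 9.4e-09), and Cubn had 4 to 10 reads. Leukocyte and endothelial markers summed to 10.2 to 27.0 in Control and 29.9 to 32.4 in STZ, with 5 of 6 detected, of which only Cd68 could be tested (adjusted p = 0.28 by edgeR), and Ptprc, Pecam1 and Cdh5 had at most 2 reads in any sample, while Kdr had 0, 2 and 1 reads in Control and 6, 9 and 7 in STZ, with no overlap. The part of these marker shifts in the changes described here was not tested. In such bulk samples, fewer cells that express a gene and less RNA per cell cannot be told apart.

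The annotation places 3 of the ligand genes side by side. In the RefSeq annotation of the rat genome build GRCr8, the protein-coding genes Btc, Areg, Ereg and Epgn follow one another on chromosome 14. Promoter windows of 250 bases before the annotated start were found for 7 of the 9 genes, in RefSeq sequence of that build. None was found for Ereg or Erbb3, so the match counts below do not cover them. The windows of Areg (chr14:17265642-17265891, minus strand), Tgfa (chr4:120175469-120175718, plus strand) and Btc (chr14:16992418-16992667, plus strand) are shown, as the ligand windows that carry matches. Each is written 5′ to 3′ in the direction of its gene, and capitals mark exact matches, on either strand, to the GC box GGGCGG, the CRE TGACGTCA and the TATA box TATAAA.
Areg: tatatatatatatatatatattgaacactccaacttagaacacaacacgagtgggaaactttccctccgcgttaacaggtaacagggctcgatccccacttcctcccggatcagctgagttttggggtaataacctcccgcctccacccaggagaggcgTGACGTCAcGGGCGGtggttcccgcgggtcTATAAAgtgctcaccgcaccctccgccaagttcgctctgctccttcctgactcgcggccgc
Tgfa: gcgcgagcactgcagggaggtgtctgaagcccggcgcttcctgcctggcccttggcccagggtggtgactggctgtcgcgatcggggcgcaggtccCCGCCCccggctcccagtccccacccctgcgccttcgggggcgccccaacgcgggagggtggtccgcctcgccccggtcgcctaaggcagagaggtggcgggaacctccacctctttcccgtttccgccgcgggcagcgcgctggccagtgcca
Btc: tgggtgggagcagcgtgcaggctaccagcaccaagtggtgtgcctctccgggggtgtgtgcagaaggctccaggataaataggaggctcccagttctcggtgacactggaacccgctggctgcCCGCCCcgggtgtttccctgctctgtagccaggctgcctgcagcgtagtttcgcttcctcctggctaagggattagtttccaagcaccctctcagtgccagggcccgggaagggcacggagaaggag
The Areg window held the CRE at position -91, a GC box at -82 and a TATA box at -61, counted from the annotated start, and these matches do not overlap. The CRE, the sequence bound by cyclic AMP response factors, was in 1 of the 7 windows and in 1.59% of 33469 promoter windows of the same length. A GC box was in 6 of the 7, against 30.5% of all windows, and a TATA box in 2, Areg and Errfi1, against 12.9%. The 7 windows were 54.4% (Areg) to 74.4% (Tgfa) G and C. The G and C content of all windows was not computed, and the part of base content in the GC box matches was not tested. The AP-1 sequence TGANTCA, the E-box CACGTG, the serum response element and the p53 element had 0 matches in the 7 windows, and were in 6.34%, 5.59%, 1.5% and 0.0388% of all windows. Each match is a run of letters in this window and says nothing of binding.

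All 9 genes passed the filter on low counts, which 11870 genes passed in all. In STZ-treated cells 8 were higher and 1, Erbb2, was lower than in vehicle-treated cells, at an adjusted p-value under 0.05 by the quasi-likelihood test of edgeR, adjusted over all genes tested. Over all genes tested, 50.9% were called in either direction, 25.9% higher and 25.1% lower, so a call alone was common in this comparison. The 9 genes had a median log2 fold change of 0.37, against -0.01 over all genes tested. All 5 ligands were higher, with a median of 0.97, while of the 3 receptors 2 were higher and 1 lower. Groups did not overlap for any of the 9 genes, with STZ higher for 8, against 28.6% of all genes, and STZ lower for 1, against 27.7%. Ereg and Tgfa also passed the log2 fold change of 1 that the study set, which 3.37% of all genes passed in either direction and 2.26% as higher. Values are given as normalized counts, that is, read counts scaled to a common library size of 12447173 reads, and apply within a gene, because transcript lengths were not used and levels of different genes cannot be ranked.

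**Figure D1:**
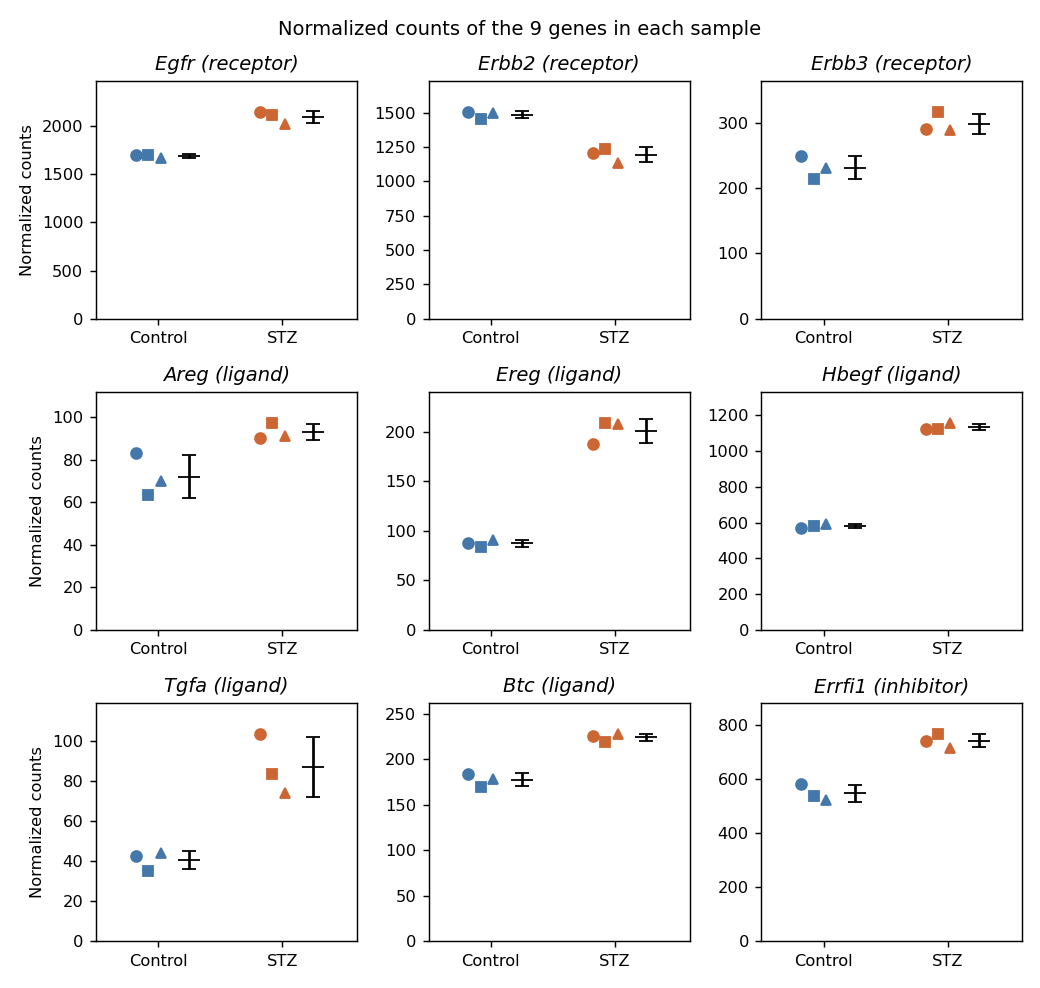
Normalized counts (y axis, from 0) of the 9 genes in each Control (blue) and STZ (orange) sample, with circle, square and triangle for replicates 1, 2 and 3 and black bars for mean ± SD (n = 3). STZ samples lie above all Control samples for 8 genes and below them for Erbb2.

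Among the receptors, Egfr, which binds EGF, TGF-alpha, amphiregulin, HB-EGF, betacellulin and epiregulin, was moderately higher. It had 1706, 1703 and 1672 normalized counts in Control replicates 1, 2 and 3, and 2149, 2119 and 2021 in the STZ replicates. Every STZ sample stood above every Control sample, and the gap was larger than the spread within either group. The change was 1.24-fold (95% confidence interval 1.17 to 1.31, log2 fold change 0.31, standard error (SE) 0.04, adjusted p = 6.5e-08 by edgeR, as for all adjusted p-values unless another tool is named).

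Erbb2, which encodes the receptor that binds no known ligand itself and serves as a partner of the others, went the other way. Control replicates had 1504, 1456 and 1494 normalized counts, and STZ replicates had 1209, 1236 and 1131. Its highest STZ sample was below its lowest Control sample. The ratio of STZ to Control was 0.802 (95% confidence interval 0.751 to 0.855, log2 fold change -0.32, SE 0.05, adjusted p = 2e-07 by the same edgeR test). An unnamed small nuclear RNA gene overlaps Erbb2 in the GRCr8 annotation, and the sources used here do not give the strand setting used for counting.

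Erbb3 encodes a receptor with little kinase activity that binds neuregulins and signals through its partners. It had 249, 214 and 231 normalized counts in Control and 290, 317 and 289 in STZ. The groups did not overlap, and the lowest STZ value stood above the highest Control value by more than the SD within either group. The rise was 1.29-fold (95% confidence interval 1.14 to 1.45, log2 fold change 0.37, SE 0.09, adjusted p = 3.8e-04 by edgeR).

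Hbegf, which encodes heparin-binding EGF-like growth factor, had the smallest p-value of the 9 genes and ranked 97 by p-value among all genes tested. Its normalized counts were 570, 581 and 590 in Control and 1124, 1127 and 1157 in STZ. Replicates differed little, with 580 ± 9.93 in Control (SD, n = 3) and 1136 ± 18.3 in STZ (SD, n = 3). The transcript was 1.96-fold higher (95% confidence interval 1.82 to 2.11), and its log2 fold change of 0.97 (SE 0.05, edgeR adjusted p = 1.5e-19) lay just under the threshold of 1.

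Ereg encodes epiregulin, a ligand of Egfr and Erbb4, and showed the largest fold change of the 9 genes. Control replicates had 88.0, 83.8 and 90.3 normalized counts and STZ replicates 187, 209 and 208. The lowest STZ value was above 2 times the highest Control value. The rise was 2.30-fold (95% confidence interval 1.95 to 2.70, log2 fold change 1.20, SE 0.12, adjusted p = 1e-11 by edgeR).

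Tgfa, which encodes transforming growth factor alpha, had the fewest reads of the 9 genes over the 6 samples, with 31 to 45 in the Control samples and 77 to 114 in the STZ samples. Normalized counts were 42.2, 35.1 and 43.7 in Control and 103, 83.3 and 73.9 in STZ. The STZ replicates were spread more widely than the Control replicates, and replicate 1 was the highest. The log2 fold change was 1.10 (SE 0.18, edgeR adjusted p = 1.8e-06), a 2.14-fold rise with a 95% confidence interval of 1.67 to 2.74. Without STZ replicate 1 it was 0.95 and no longer passed the fold-change threshold, which left Ereg as the only one of the 9 genes past both thresholds.

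Btc encodes betacellulin, a ligand of Egfr and Erbb4. It had 184, 170 and 179 normalized counts in Control and 225, 220 and 228 in STZ, with no overlap. The change was 1.26-fold (95% confidence interval 1.11 to 1.44, log2 fold change 0.34, SE 0.09, adjusted p = 0.0026 by edgeR).

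Areg encodes amphiregulin, an Egfr ligand, and had the weakest evidence of a change. Its reads numbered 71, 56 and 72 in Control and 100, 90 and 110 in STZ, and its normalized counts 83.3, 63.4 and 69.9 in Control and 90.5, 97.3 and 91.4 in STZ. The highest Control sample, replicate 1, was close to the lowest STZ sample. The rise was 1.29-fold (95% confidence interval 1.05 to 1.59, log2 fold change 0.37, SE 0.15, adjusted p = 0.036 by edgeR). The call was lost in 7 of 14 alternative analyses, among them the Wald test of DESeq2 (adjusted p = 0.12) and each fit that left out Control replicate 2 (adjusted p = 0.16), Control replicate 3 (0.094), STZ replicate 1 (0.055), STZ replicate 2 (0.093) or STZ replicate 3 (0.063), and over all alternatives the adjusted p ran from 0.017 to 0.16.

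The rises of the ligand genes differed in size. The intervals of Ereg, Tgfa and Hbegf overlapped one another and lay above those of Areg and Btc. Of the neighbouring genes on chromosome 14, Ereg rose 2.30-fold while Btc and Areg, on the same side of it, rose 1.26-fold and 1.29-fold. Epgn, the epigen gene on its other side, had 2, 0 and 1 reads in Control and 0 in each STZ sample, too few for a comparison.

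Errfi1 encodes Mig6, which binds the kinase domain of active receptors and blocks it. Control replicates had 583, 539 and 521 normalized counts, and STZ replicates had 743, 767 and 718. The groups did not overlap. It was 1.36-fold higher (95% confidence interval 1.25 to 1.47, log2 fold change 0.44, SE 0.06, adjusted p = 3.8e-08 by edgeR). A long non-coding RNA gene overlaps Errfi1 in the GRCr8 annotation, and reads of such genes may not be fully separated.

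**Figure D2:**
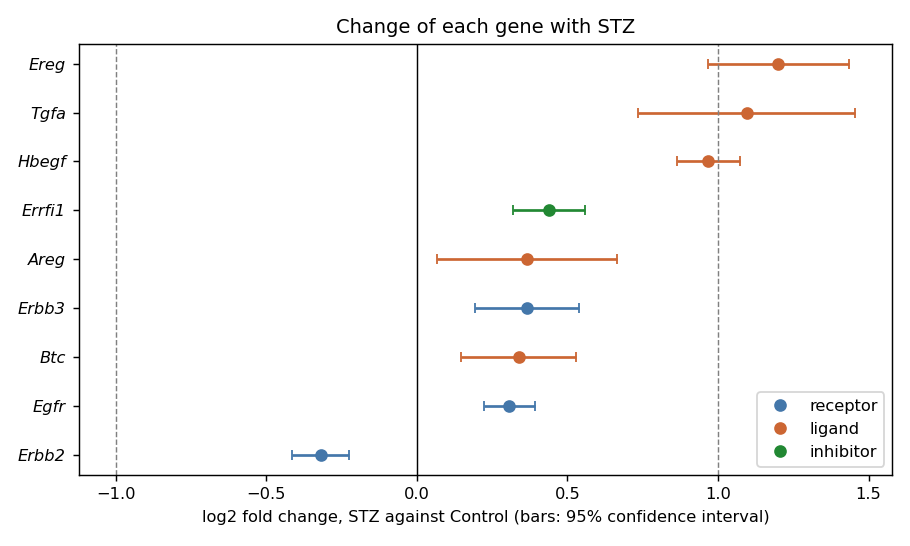
Log2 fold change of STZ against Control (x axis) for each of the 9 genes, with bars for the 95% confidence interval from edgeR and dashed lines at the study's threshold of 1 in either direction. Ereg (1.20), Tgfa (1.10) and Hbegf (0.97) lie around the threshold, 5 genes lie between 0.31 and 0.44, and Erbb2 lies at -0.32.

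Ratios of read counts within a sample do not depend on library scaling, and transcript length cancels when a ratio is compared between groups. Reads of both Egfr and Erbb3 were higher relative to Erbb2 in STZ. The ratio of Egfr to Erbb2 reads was 1.13, 1.17 and 1.12 in Control and 1.78, 1.71 and 1.79 in STZ. That of Erbb3 to Erbb2 went from 0.156 ± 0.00924 (SD, n = 3) to 0.251 ± 0.00905 (SD, n = 3). Egfr and Erbb3 kept a more similar balance, at 7.35 ± 0.561 in Control (SD, n = 3) and 7.03 ± 0.357 in STZ (SD, n = 3), with overlapping groups. The ratio of Ereg to Areg reads was 1.06, 1.32 and 1.29 in Control and 2.07, 2.14 and 2.27 in STZ. Hbegf also rose relative to Btc, from 3.27 ± 0.164 (SD, n = 3) to 5.07 ± 0.0738 (SD, n = 3), and relative to Egfr, from 0.343 ± 0.00944 (SD, n = 3) to 0.542 ± 0.0263 (SD, n = 3). Errfi1 reads per Egfr read were barely apart between the groups, at 0.323 ± 0.0162 (SD, n = 3) and 0.354 ± 0.00815 (SD, n = 3). Over the 10 ratios computed, which were picked with the counts known, groups were apart in 9, each with an exact two-sided permutation p of 0.1, the smallest that 3 against 3 samples allow (0.11 after Benjamini-Hochberg adjustment). The share of ratios apart over all gene pairs was not computed. These ratios were formed from genes whose groups were already apart, so their count is a description only. The ratio of Egfr to Erbb3 had an exact permutation p of 0.5.

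**Figure D3:**
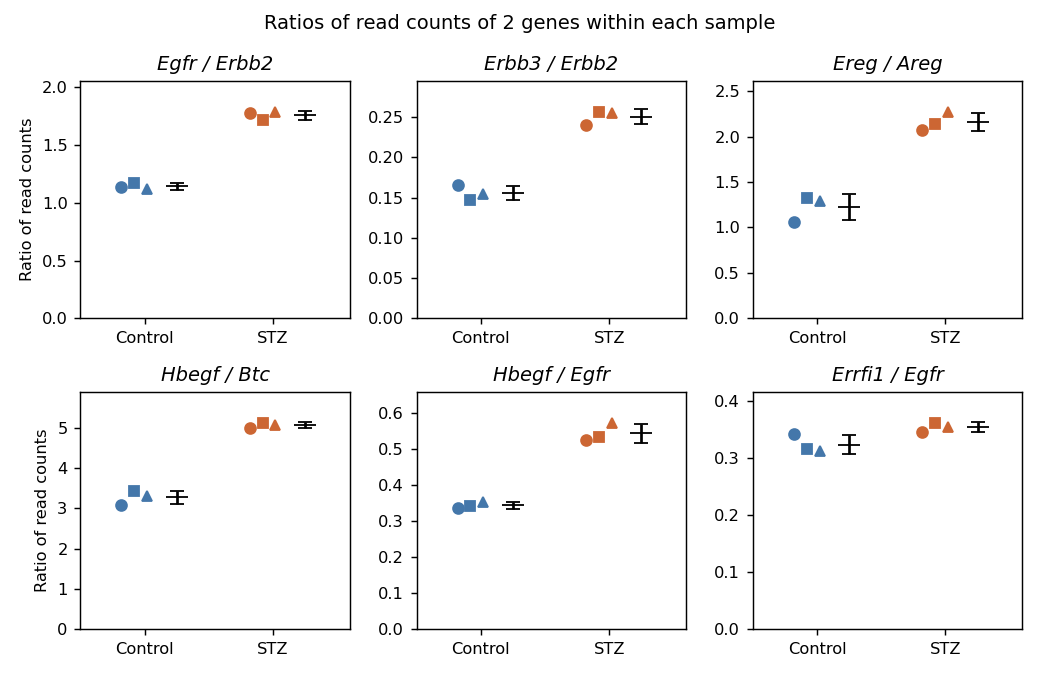
Ratio of read counts of 2 genes within each sample (y axis, from 0) for Control (blue) and STZ (orange), with circle, square and triangle for replicates 1, 2 and 3 and black bars for mean ± SD (n = 3). The ratio of Egfr to Erbb2 is 1.12 to 1.17 in Control and 1.71 to 1.79 in STZ, while that of Errfi1 to Egfr stays between 0.312 and 0.362.

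Of the other ligands and receptors of the family, 4 of 7 had reads. Nrg1, which encodes the Erbb3 and Erbb4 ligand neuregulin-1, had 429, 486 and 535 reads in Control and 1051, 866 and 1201 in STZ. Its log2 fold change was 0.88 (SE 0.06, edgeR adjusted p = 4.3e-17), with all STZ samples above all Control samples. Long non-coding RNA genes overlap Nrg1 in the GRCr8 annotation, so its reads may not be fully separated from theirs. Egf itself had 12 to 19 reads per sample and a log2 fold change of 0.21 (SE 0.33, adjusted p = 0.62), and Nrg4 had at most 3 reads in any sample. Erbb4, Nrg2 and Nrg3 were not analysed here.

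Of 8 genes of ligand release and its control tested, 4 were higher and 2 lower, beside 25.9% higher and 25.1% lower among all genes, and the median was 0.14 on the log2 scale. The number higher was 3 to 4 across the alternative analyses. Of the 4, Adam9 had the largest adjusted p (0.035 by edgeR), with a 1.07-fold change. Adam17, the main metalloproteinase that sheds Tgfa, Areg, Ereg and Hbegf, had 1696 normalized counts in Control and 2159 in STZ, and rose by 0.35 on the log2 scale (SE 0.04, edgeR adjusted p = 3.5e-09). Rhbdf2, which encodes the Adam17 partner iRhom2, rose by 0.33 (SE 0.10, adjusted p = 0.0042), but the adjusted p was 0.063 without STZ replicate 2. Adam10, the metalloproteinase known for shedding Btc, had a log2 fold change of -0.21 (SE 0.04, adjusted p = 3.2e-05), and the tetraspanin gene Cd82 also one of -0.21 (SE 0.05, adjusted p = 2.4e-04). The Cd82 groups overlapped, unlike those of Adam10, and the DESeq2 Wald test gave Cd82 an adjusted p of 0.036.

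Adaptors and kinases downstream of the receptors included 7 higher and 4 lower genes of 25 tested, beside 50.9% called in either direction among all genes. Their median log2 fold change was 0.04. Src, a tyrosine kinase that works with Egfr, had the largest rise of the list at 0.65 (SE 0.05, edgeR adjusted p = 6.4e-16), followed by the small GTPase gene Hras at 0.42. Pik3r1, the regulatory subunit p85-alpha of PI3-kinase, had the largest fall of the list at -0.46 (SE 0.05, adjusted p = 9e-11), followed by the docking protein gene Gab1 at -0.30. The regulatory subunit genes of PI3-kinase did not all fall. Pik3r2 was not called, at -0.07, and Pik3r3, which was not in the list, rose by 0.87 (SE 0.05, edgeR adjusted p = 5.2e-20).

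Genes that dampen or remove the receptors included 9 higher and 5 lower of 19 tested, beside 25.9% and 25.1% of all genes, with a median of 0.10 on the log2 scale. The receptor-type phosphatase gene Ptprj rose by 0.70 (SE 0.06, edgeR adjusted p = 2.1e-12), and Lrig1, which encodes a membrane protein that restrains ErbB receptors, by 0.48 (SE 0.06, adjusted p = 5.7e-09). Sh3kbp1, which encodes the Cbl-binding endocytic adaptor CIN85, had a log2 fold change of -0.64 (SE 0.14, adjusted p = 1.8e-04), and Socs3, a cytokine-signalling suppressor, one of -0.47 (SE 0.05, adjusted p = 3.2e-10).

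ERK-responsive genes moved in both directions. Of 20 tested, 9 were higher and 4 lower, beside 25.9% and 25.1% of all genes, and the median was 0.04 on the log2 scale. Fos, an immediate early gene, had 698, 788 and 883 reads in Control and 453, 384 and 417 in STZ, a log2 fold change of -1.14 (SE 0.06, edgeR adjusted p = 6.1e-19), and Egr1, another, had one of -0.99 (SE 0.07, adjusted p = 1.3e-15). In contrast, Fosl1, the later AP-1 gene for Fra-1, had 23, 41 and 52 reads in Control and 230, 229 and 290 in STZ, a log2 fold change of 2.46 (SE 0.15, adjusted p = 2.7e-18). Etv4, an ETS factor gene, rose by 1.06 (SE 0.10, adjusted p = 3.4e-12). The ERK feedback genes Dusp6, a phosphatase of ERK, and Spry4, a Sprouty inhibitor, rose by 0.67 and 0.48 (edgeR adjusted p = 1e-10 and 1.5e-10). The feedback genes of the list did not all rise. Dusp4 and Dusp5 rose by 0.66 and 0.50, while Spred2 had a log2 fold change of -0.34 (edgeR adjusted p = 0.0017). Spry1, Spry2 and Spred1 were not called, at 0.03, 0.03 and -0.06.

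**Figure D4:**
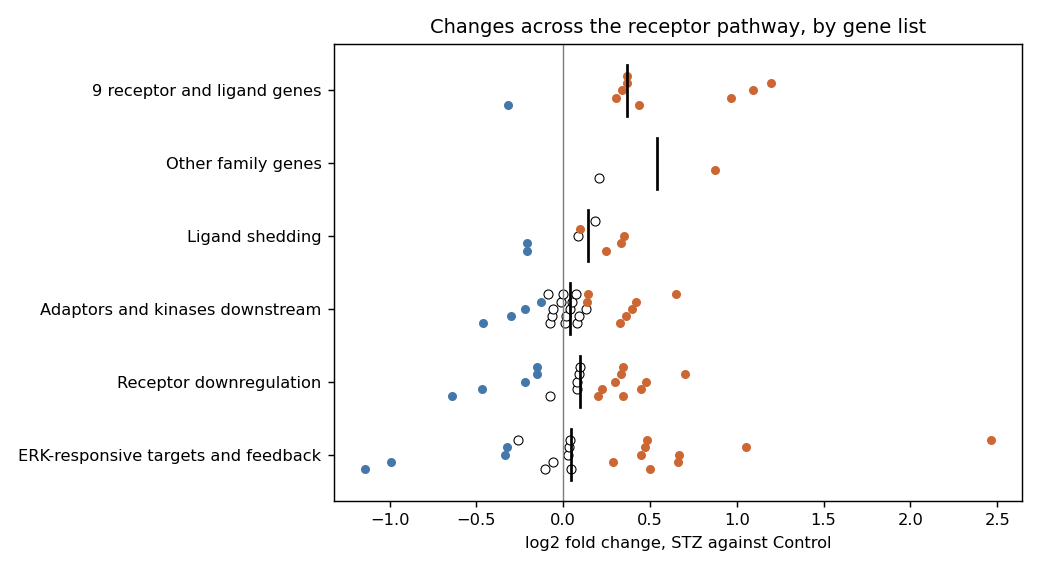
Log2 fold change of STZ against Control (x axis) for each gene tested in 6 lists of the receptor pathway, filled orange (higher) or blue (lower) at an adjusted p-value under 0.05 and open otherwise, with a black line at each list's median. The medians are 0.37 for the 9 receptor and ligand genes and 0.04 to 0.14 for the 4 lists of ligand release, downstream kinases, receptor downregulation and ERK-responsive genes, while the 2 other family genes tested, Nrg1 and Egf, have a median of 0.54.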

How the data were processed

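Total RNA of the 6 samples was converted to stranded mRNA libraries and sequenced as single-end reads. The authors aligned the reads to rat genome Rnor6 with STAR 2.7.10a, per the labels and the study's methods, and tallied uniquely aligned reads per gene with featureCounts. They deposited raw counts per gene, 1 column for each sample, and no sample column was left unused. Here the counts were scaled with TMM, filtered with filterByExpr and tested over the whole table by the quasi-likelihood test of edgeR 4.0.16 in R 4.3.3, with no covariate and Benjamini-Hochberg adjustment over 11870 genes. Genes were called at an adjusted p under 0.05, and the study's absolute log2 fold change over 1 was read separately. Standard errors are the absolute log2 fold change over the square root of F, and fold changes are moderated by edgeR's small prior count.

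The 9 genes, the lists of 88 pathway genes outside them and the ratios were chosen with earlier results of these data known. All 9 genes are described. From each list the 2 largest called rises and 2 largest called falls among genes with at least 50 mean normalized counts are named, and Fos, Egr1, Dusp6, Spry4 and Adam17 were to be named in any case, of which Dusp6 and Spry4 were not among those, and for likeness the 3 genes best correlated with each of the 2 genes of largest change. Alternatives were other filters, scalings and tests (DESeq2 1.42.0, limma-voom 3.58.1), a replicate block and each sample left out. In a simulation on 11870 genes, 81 of 96 genes changed by 0.5 and 99 of 104 changed by 1 (log2) were recovered, with 9 unchanged genes called. The simulation gave every gene the same variation beyond counting noise (a coefficient of variation of 3.25%) and changed only those genes. In the data variation differs by gene and 50.9% of genes were called, so these rates may not hold there. Library totals of 10430924 to 15191349 limit precision for genes with few reads. Promoter sequences and gene order are from RefSeq (GRCr8). No coordinates of the counted genes are given, because the counting used another build.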

Additional observations from a re-analysis of the deposited data

How the results depend on the processing

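Across 14 alternatives, 119 of 126 refitted log2 fold changes of the 9 genes had the same direction and call (adjusted p under 0.05) as reported, and none changed direction. The 7 exceptions were all Areg, whose log2 fold change of 0.37 (adjusted p = 0.036) was 0.33 with library size only (edgeR adjusted p = 0.057), 0.37 with the DESeq2 Wald test (adjusted p = 0.12), and 0.29 to 0.47 with one sample left out, where the call held only without Control replicate 1; its reads, 56 to 110 per sample, are among the fewest. The number of the 9 genes past both thresholds, 2, was 1 to 2 with one sample left out, and 1 without STZ replicate 1, where Tgfa had 0.95. The number called on the adjusted p-value was 8 to 9, and that of the 74 pathway genes tested, 45, was 42 to 46. Of 266 refits of 19 named pathway genes, 265 were unchanged in call, and Rhbdf2 lost its call without STZ replicate 2. The cause of these differences was not tested.

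Control and STZ samples share replicate numbers. Deviations of same-numbered samples from their group means correlated at 0.0314, -0.0343 and 0.104 over 9890 genes. With 3 samples per group, such values cannot tell whether same-numbered samples were handled together. Control replicate 3 correlated best with the STZ sample of its own number, and Control replicates 1 and 2 did not. With the replicate block, 9 genes were called, 2 of them past both thresholds, 46 pathway genes were called, and Areg had a log2 fold change of 0.36. Over all genes tested, the block gave 3139 higher and 3060 lower calls, against 3070 and 2976 without it. Under every scaling the median log2 fold change of all genes stayed between -0.04 and -0.01.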

Other observations

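Ereg and Tgfa had the largest log2 fold changes of the 9 genes, and other genes with a like profile over the 6 samples were looked up among 9889 genes with at least 50 mean normalized counts. Those nearest to Ereg were Rap2b, a Ras-like GTPase gene, with a log2 fold change of 0.87, Ap1g1, a clathrin adaptor gene, with 0.13, and Ostf1 with 0.58. Those nearest to Tgfa were Ptprf, a receptor-type phosphatase gene, with 0.21, Cdc25c, a mitotic phosphatase gene, with 0.45, and Sh2d4a with 0.52. All had a Pearson correlation of log2 normalized counts above 0.95 with the gene in question, over 6 samples that share the same libraries, as did 12.1% of the genes compared with Ereg and 5.39% of those compared with Tgfa. Likeness over 6 samples in 2 groups mostly reflects the gap between the groups, and it is given as a description.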
